A study of Mus musculus with 6 samples.

Results

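Galectins are lectins that bind the beta-galactosides at the ends of branched glycans. They are made without a signal peptide, leave the cell by a route outside the secretory pathway, and on the surface cross-link glycoproteins into lattices. Inside the cell they bind to damaged endosomes and lysosomes and to signaling proteins. In leukemia and in normal myeloid cells galectins are known for effects on adhesion, survival and the response of T cells. The genes described here were Lgals1, Lgals3, Lgals8 and Lgals9, which encode galectins, and Lgals3bp, which encodes a secreted glycoprotein that galectin-3 binds and that is itself no galectin. These 5 genes were among 36083 in the table of per-library values, and were picked by family with the WT and Sdc1-/- values of these libraries already known. The levels and fold changes of these 5 genes are therefore a description, with no test. All 5 passed the minimum for the fit across genes, an average of 1 or more per library. Another 6 genes of the family, Lgals2, Lgals4, Lgals7, Lgals12, Lgalsl and Grifin, were in the table and serve as the comparison.

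RNA-seq was run on blast crisis chronic myeloid leukemia (bcCML) cells of 2 groups, with 3 libraries in each. KLS cells, a population rich in hematopoietic stem cells, came from WT B6 mice or from B6 mice with a disrupted Sdc1 gene (Sdc1-/-), the gene of the proteoglycan syndecan-1. Both groups carried the same pair of retroviral oncogenes, BCR-ABL and NUP98-HOXA9, and cells positive for both were transplanted into NSG mice, whose spleens were all taken at one time. Lineage-negative (Lin-) cells were sorted from these spleens with antibodies that included CD11b, Gr1, TER119 and B220, and RNA was read with a poly(A)-selecting kit. The labels name no treatment and no age of the mice. The general methods of the study name another recipient strain than the labels do. NSG mice lack lymphocytes but keep their own neutrophils, macrophages and erythroid cells, whose transcripts are murine like those of the graft. The gating summary of the study puts a sort for NGFR and CD2, the surface tags of the BCR-ABL and NUP98-HOXA9 vectors, before the lineage gate, a step that would remove host cells, which lack these tags, while the labels name the lineage gate alone. The Sdc1 allele interrupts the signal peptide, so that the protein should not reach the surface, and its mRNA need not be lost.

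The values deposited were TPM, a measure per transcript length that allows levels to be set against each other between genes, and the authors had rescaled them between libraries. The sums per library ran from 1048875 to 1058263 in WT and from 944973 to 951814 in Sdc1-/-. Read depth is unknown, so no counting interval is given, and p-values measure the spread between these libraries only. A legend of the study calls the WT libraries technical replicates, the labels do not say whether libraries of a group came from separate mice, and n below counts libraries, so that the p-values compare these libraries rather than mice of each genotype. Sdc1 was 1.75, 1.21 and 1.51 in the WT libraries and 3.85, 3.80 and 4.12 in the libraries labelled Sdc1-/-. It was thus higher, not lower, in the latter (log2 fold change 0.99, SE 0.093, adjusted p = 0.00012 by limma, with p = 0.10 in a two-sided exact permutation test, the smallest that 3 against 3 libraries allow). The summed value of 4 Y-linked genes was 0.28 to 0.31 in WT and 68.1 to 78.4 in Sdc1-/-, so that the sex of the cells and the genotype cannot be told apart. Of 12155 genes tested, 60.7% passed an adjusted p of 0.05 by limma, 31.3% lower and 29.3% higher in Sdc1-/-. When the libraries were put on equal sums of 1000000, as in unscaled TPM, the log2 fold change of the median gene went from -0.01 to 0.12, and 19.6% were lower and 43.5% higher. Small differences below therefore depend on the scale, and both scales are given where the result differs.

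The genes lay on 4 chromosomes (GRCm38, GENCODE M21). Lgals1 is at chr15:78926725-78930465 on the plus strand, Lgals3 at chr14:47367751-47386160 on the plus strand, and Lgals8 at chr13:12439415-12464944 on the minus strand. Lgals9, at chr11:78962974-78984946, and Lgals3bp, at chr11:118392751-118402092, are both on the minus strand. To show which members carry the sugar-binding fold and how often, the coding sequence of the longest principal transcript was searched for the residues that hold the galactoside. These were a histidine, an asparagine and an arginine with 1 residue between each, then a tryptophan and, 3 residues on, a glutamate. Lgals1 and Lgals3 held 1 such stretch, Lgals8 and Lgals9 held 2, and Lgals3bp held none. The 6 stretches are exonic, each within 1 coding exon, and are printed 5′ to 3′ in the gene's sense with the codons of those 5 residues in capitals.
Lgals1 (chr15:78929676-78929765, plus strand): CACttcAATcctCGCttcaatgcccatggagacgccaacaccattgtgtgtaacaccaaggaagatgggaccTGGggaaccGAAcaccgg
Lgals3 (chr14:47384642-47384728, plus strand): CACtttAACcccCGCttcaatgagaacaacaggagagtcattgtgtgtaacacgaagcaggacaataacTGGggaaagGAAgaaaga
Lgals8, N-terminal domain (chr13:12454807-12454887, minus strand): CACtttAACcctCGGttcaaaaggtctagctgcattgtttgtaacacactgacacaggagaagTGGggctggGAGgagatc
Lgals8, C-terminal domain (chr13:12447189-12447266, minus strand): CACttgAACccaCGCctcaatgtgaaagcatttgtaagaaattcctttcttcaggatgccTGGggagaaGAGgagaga
Lgals9, N-terminal domain (chr11:78973060-78973140, minus strand): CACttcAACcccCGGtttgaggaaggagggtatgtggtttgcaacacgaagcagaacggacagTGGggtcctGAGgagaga
Lgals9, C-terminal domain (chr11:78965737-78965814, minus strand): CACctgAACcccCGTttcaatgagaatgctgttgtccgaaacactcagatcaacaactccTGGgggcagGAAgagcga
Galectins with 1 domain act as dimers, galectin-3 as an oligomer through its collagen-like N-terminal tail, and galectin-8 and galectin-9 are tandem-repeat proteins that join both domains by a linker. Between Lgals8 and Lgals9, 14 of 27 encoded residues were identical in the N-terminal stretch and 15 of 26 in the C-terminal one. Both counts include the 5 residues that the search required. The nucleotide sequences were distinct enough for reads to be assigned: of all words of 31 bases in the annotated transcripts of Lgals1, Lgals3, Lgals3bp and Lgals9, none occurred in another gene, and in Lgals8 2.10% did.

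In WT cells the members spanned a wide range of levels, with Lgals1 the highest, followed by Lgals9, Lgals3bp, Lgals3 and Lgals8. Lgals1 stood at 649 ± 24.1 (SD, n = 3 libraries), above 99.4% of all genes in the table. Lgals9 stood at 541 ± 4.53 (SD, n = 3), Lgals3bp at 165 ± 3.33 (SD, n = 3), Lgals3 at 143 ± 2.54 (SD, n = 3) and Lgals8 at 16.5 ± 1.30 (SD, n = 3). No neighbours in this order overlapped in WT. The order was the same in Sdc1-/-, again with no overlap, at 573 ± 28.5 for Lgals1, 404 ± 6.92 for Lgals9, 159 ± 5.69 for Lgals3bp, 38.5 ± 0.53 for Lgals3 and 13.5 ± 1.03 for Lgals8 (SD, n = 3 each). The distance between Lgals3bp and Lgals3 widened, so that Lgals3, close below its binding protein in WT, was far below it in Sdc1-/-.

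**Figure D1:**
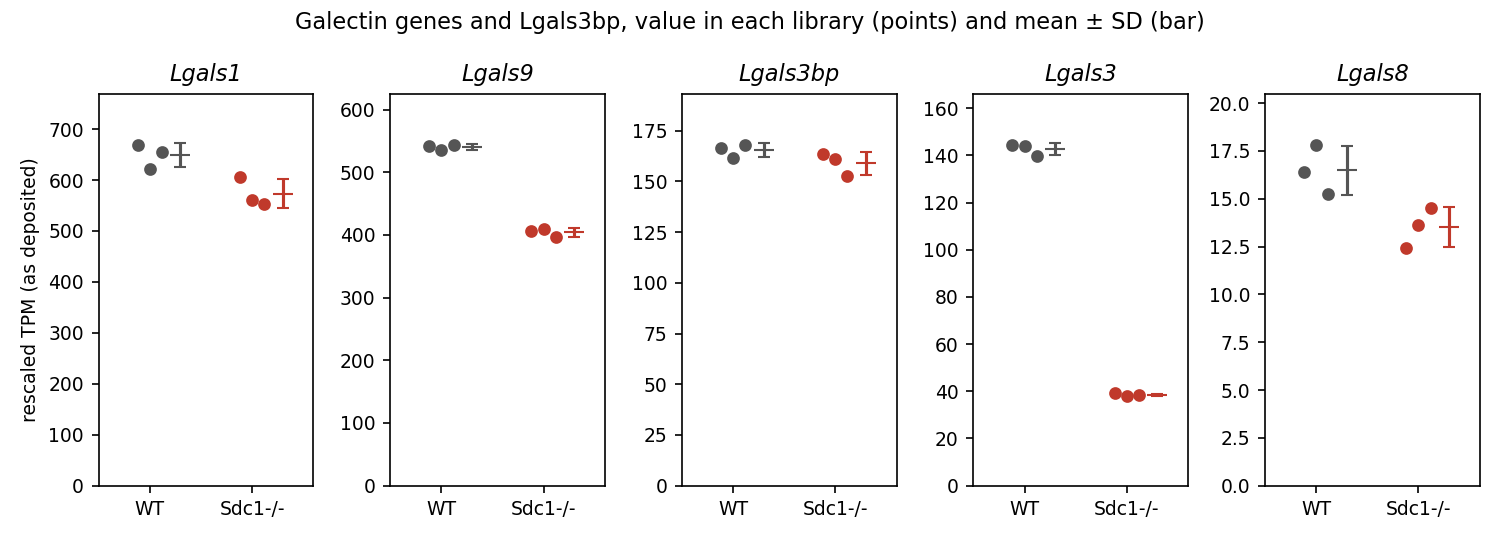
Deposited value (rescaled TPM, linear axis from 0, one scale per gene) of the 4 galectin genes and Lgals3bp in each library; points are libraries, bars the mean ± SD of 3 libraries. Lgals3 averages 143 in WT and 38.5 in Sdc1-/- with no overlap, while the 2 groups overlap for Lgals3bp.

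Lgals3, the chimera-type galectin that is abundant in macrophages and other myeloid cells and marks damaged lysosomes, had the largest difference of the members as a ratio, while the difference between the mean values was larger for Lgals9. Its values were 145, 144 and 140 in the WT libraries. In Sdc1-/- they were 39.1, 38.0 and 38.5. All WT libraries were high and all Sdc1-/- libraries low, with a wide gap and little spread within a group. The WT mean was 3.71 times the Sdc1-/- mean, and the log2 fold change was -1.86 (SE 0.030). Of the 12155 genes tested, 30 (0.247%) had a lower log2 fold change. The difference was as clear with library sums of 1000000, at -1.72 (SE 0.028), with no overlap.

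Lgals9, a tandem-repeat galectin known to be induced by interferon and to act on T cells, was 543, 535 and 544 in WT. The Sdc1-/- libraries read 406, 410 and 396. The Sdc1-/- libraries were all below the WT libraries, at 74.8% of the WT mean, with a log2 fold change of -0.42 (SE 0.027). Within each group the libraries lay close together. On the scale of equal sums the log2 fold change was -0.27 (SE 0.025), and the groups still did not overlap. A lower log2 fold change was found for 13.4% of the genes tested, so the difference in Lgals9 was well inside the range of the transcriptome.

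Lgals1, a prototype galectin that acts as a homodimer and is known for inducing death of activated T cells, was 669, 622 and 655 in WT. In Sdc1-/- it was 606, 561 and 553. On the deposited scale the groups did not overlap, but the lowest WT library was only 16.4 above the highest Sdc1-/- library, and the log2 fold change was -0.18 (SE 0.046). With equal library sums it was -0.031 (SE 0.044) and the groups overlapped. With quantile normalization it was -0.070, also nearer to 0 than on the deposited scale.

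Lgals8, a tandem-repeat galectin that detects damaged vesicles and links them to autophagy, was 16.4, 17.8 and 15.2 in WT. It was 12.4, 13.6 and 14.5 in Sdc1-/-. The groups stood close together without overlap on the deposited scale, with a log2 fold change of -0.27 (SE 0.074). With equal sums the log2 fold change was -0.13 (SE 0.075) and the groups overlapped. With quantile normalization the log2 fold change was -0.29. As for Lgals1, the groups were apart on the deposited scale and overlapped with equal sums.

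Lgals3bp, also known as Mac-2 binding protein, is a secreted scavenger receptor-like glycoprotein and an interferon-induced gene. Its WT values were 166, 162 and 168. Its Sdc1-/- values were 163, 161 and 152, so that 1 Sdc1-/- library lay within the WT range. The log2 fold change was -0.057 (SE 0.036) on the deposited scale and turned to 0.090 (SE 0.034) with equal sums, where the Sdc1-/- libraries were all above the WT libraries. Lgals3bp thus had no direction that held on both scales.

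In all, 4 of 5 members were lower without overlap on the deposited scale, where 34.2% of all genes tested were so. With equal sums 2 of 5 members, Lgals3 and Lgals9, were lower without overlap, against 22.0% of all genes, and 1, Lgals3bp, was higher, against 46.8%. These counts rest on the values with which the members were picked. Relative to the median of all genes, the log2 fold changes with equal sums were -1.84 for Lgals3, -0.39 for Lgals9, -0.25 for Lgals8, -0.15 for Lgals1 and -0.03 for Lgals3bp, close to -1.85, -0.41, -0.26, -0.17 and -0.05 on the deposited scale.

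**Figure D2:**
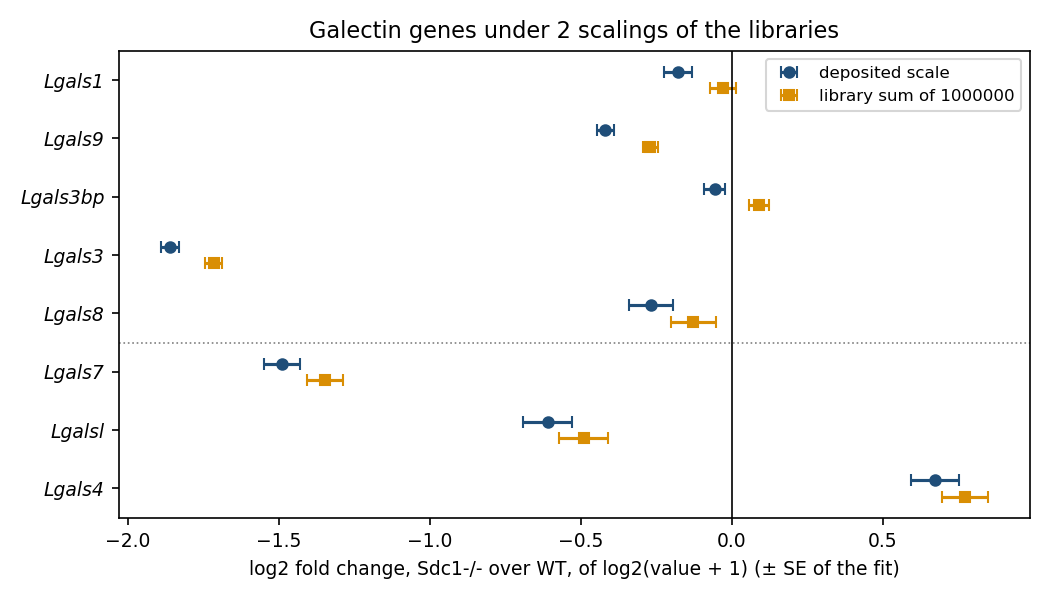
Log2 fold change of Sdc1-/- over WT on the log2(value + 1) scale (points, ± SE of the limma fit over 6 libraries) for the members above the dotted line and other galectin genes below it, on the deposited scale (circles) and with every library at a sum of 1000000 (squares). Lgals3 and Lgals7 lie far to the left on both scales, and Lgals3bp changes side.

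Ratios within a library do not depend on the scale. Lgals1 per Lgals3 was 4.63, 4.32 and 4.68 in WT and 15.5, 14.8 and 14.4 in Sdc1-/-. Lgals9 per Lgals3 went from 3.79 ± 0.089 to 10.5 ± 0.25, and Lgals3bp per Lgals3 from 1.16 ± 0.040 to 4.13 ± 0.14 (SD, n = 3 libraries each). The 3 ratios to Lgals3 were thus all higher in every Sdc1-/- library. They share Lgals3 as the denominator, so together they restate its lower value. By contrast, Lgals9 per Lgals8 was 33.0 ± 2.84 in WT and 30.0 ± 2.64 in Sdc1-/- (SD, n = 3), with overlap. Lgals1 per Lgals9 was 1.20 ± 0.036 in WT and 1.42 ± 0.065 in Sdc1-/-, without overlap.

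Summed over the 10 galectin genes in the table, Lgals3bp left out, the values came to 1401 ± 28.4 in WT and 1051 ± 32.4 in Sdc1-/- (SD, n = 3). Of this sum Lgals1 made up 46.3% ± 0.79 in WT and 54.5% ± 1.06 in Sdc1-/-, and Lgals9 38.6% ± 0.52 and 38.5% ± 1.00. The Lgals3 share was 10.2% ± 0.29 in WT and 3.67% ± 0.082 in Sdc1-/-. Lgals8 held 1.18% ± 0.11 and 1.29% ± 0.14. The make-up of the galectin RNA thus differed most in Lgals1, whose share was 8.22 percentage points higher in Sdc1-/-, and in Lgals3, with a difference of -6.52 points, while the Lgals9 share overlapped between groups. A share rises when other galectins fall, and the Lgals1 value itself was not higher. It stood at 88.4% of its WT mean on the deposited scale and at 97.9%, with overlap, at equal sums.

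**Figure D3:**
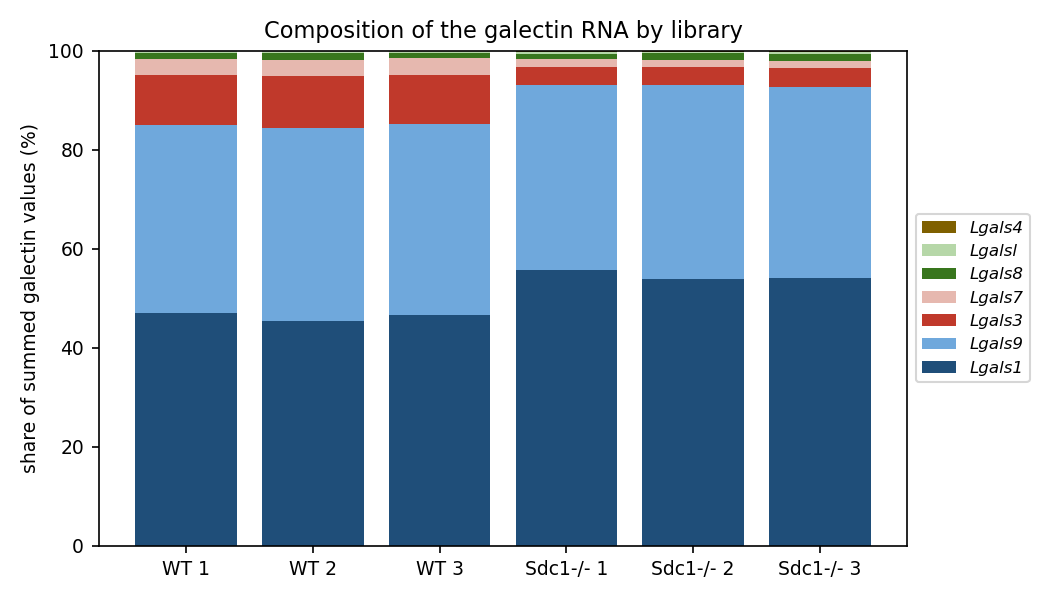
Share (%) of each galectin gene in the summed values of the 10 galectin genes, one stacked bar per library. Lgals3 takes about 10.2% in the WT libraries and 3.67% in the Sdc1-/- libraries, Lgals9 about 38.5% in both; genes at or near 0 are not drawn.

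Of the 6 other galectin genes, 3 reached the minimum mean and passed the test across all genes, as did 60.7% of the genes tested. Lgals7, a prototype galectin best known from stratified epithelium, was 46.2, 44.3 and 46.4 in WT and 17.1, 14.5 and 15.2 in Sdc1-/-. It fell with a log2 fold change of -1.49 (SE 0.060, adjusted p = 3.3e-06 by limma), and its level stood between those of Lgals3 and Lgals8 in both groups. In Sdc1-/- it was barely above Lgals8, with a lowest library of 14.55 against a highest Lgals8 library of 14.49. Lgalsl, which encodes a galectin-like protein without the full set of sugar-binding residues, was 5.75, 5.48 and 5.14 in WT and 3.40, 2.81 and 3.50 in Sdc1-/- (log2 fold change -0.61, SE 0.081, adjusted p = 5.9e-04 by limma). In its transcripts 5.37% of the words of 31 bases occurred in other genes. Lgals4, a tandem-repeat galectin of the gut, rose from 1.61, 1.28 and 1.46 to 3.02, 2.71 and 2.98 (log2 fold change 0.67, SE 0.078, adjusted p = 3.2e-04 by limma). No 31-base word of the annotated Lgals4 transcripts occurred in another annotated gene, while its near-identical copy Lgals6 was not matched. The value of Lgals4 is low and therefore uncertain. The directions of these 3 genes held on both scales. Lgals12 was listed at 0 in every library, and Lgals2 and Grifin did not exceed 0.15 in any.

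Lgals3 and Lgals7, which share no 31-base word and lie on different chromosomes, were the pair of galectin genes with the lowest fold changes. The ratio Lgals7 per Lgals3 was 0.32 ± 0.012 in WT and 0.40 ± 0.028 in Sdc1-/- (SD, n = 3), without overlap, so that Lgals3 was lower by more than Lgals7. The promoters of Lgals3 and Lgals9, the members whose separation held on both scales, are given from RefSeq (GRCm38.p6), from 250 bases before to 50 after the annotated start, 5′ to 3′ in the gene's sense. In Lgals3 the capitals mark the GC box GGGCGG on either strand, and in Lgals9 the core bound by interferon regulatory factors (IRFs), AANNGAAA on either strand.
Lgals3 (chr14:47373610-47373909, plus strand): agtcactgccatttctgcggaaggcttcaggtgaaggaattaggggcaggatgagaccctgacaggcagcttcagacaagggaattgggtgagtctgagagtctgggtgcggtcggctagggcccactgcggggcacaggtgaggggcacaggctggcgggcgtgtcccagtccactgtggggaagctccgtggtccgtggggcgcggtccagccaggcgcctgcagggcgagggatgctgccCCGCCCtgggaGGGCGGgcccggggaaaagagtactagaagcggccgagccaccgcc
Lgals9 (chr11:78984875-78985174, minus strand): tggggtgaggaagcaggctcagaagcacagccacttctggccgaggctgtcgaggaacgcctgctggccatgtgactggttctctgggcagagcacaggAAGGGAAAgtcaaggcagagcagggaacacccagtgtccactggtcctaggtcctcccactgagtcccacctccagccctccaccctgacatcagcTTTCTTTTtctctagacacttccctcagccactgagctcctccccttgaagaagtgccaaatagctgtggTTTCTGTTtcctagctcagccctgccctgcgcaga
The start of Lgals3 in RefSeq lies inside the longer GENCODE interval of the gene. Promoters were matched by symbol for 4 of 5 members, all but Lgals1, and the motifs were chosen with these sequences in view. Lgals3 held 2 GC boxes, 1 on each strand, while 35.7% of the 32851 promoters in the table held at least 1 and 19.5% at least 2. The Lgals3bp, Lgals8 and Lgals9 windows held none. Lgals9 held 3 IRF cores, Lgals3bp held 1 and Lgals3 and Lgals8 none, against 23.9% of all promoters with at least 1 and 1.12% with at least 3. Lgals9 also held 2 copies of the PU.1 core GAGGAA and Lgals3bp 1, against 28.3% of promoters with at least 1, and no PU.1 core overlapped an IRF core in these windows. The AP-1 motif TGANTCA and the TATA box TATAAA, found in 7.81% and 13.6% of promoters, occurred in none of the 4. A match is only a match of letters.

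The profiles most like those of the members were sought among 8966 genes with a mean of at least 5, by the mean absolute difference of centred log2(value + 1) over the 6 libraries. For Lgals3 the nearest was Lcn2, which encodes the neutrophil granule protein lipocalin-2, at a distance of 0.019, then Tph1, the rate-limiting enzyme of serotonin synthesis outside the brain, at 0.034. Lcn2 was at 27.3% of its WT mean in Sdc1-/- and Tph1 at 27.8%, beside 27.0% for Lgals3. For Lgals9 the nearest were Cpt1a, the mitochondrial carnitine palmitoyltransferase, and Pttg1ip, at 74.8% and 73.5% of WT. For Lgals8 they were Hoxb7 and Selenoi, for Lgals1 Cuedc2 and Slc52a2, and for Lgals3bp Ilvbl and Brap, all between 80.6% and 96.7% of WT. These distances combine the difference between groups with the spread between libraries.

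Cell type markers were read beside the members. In bulk RNA, fewer cells of a type and less RNA per cell cannot be told apart. Beside the counts below, limma put 31.3% of all genes tested lower and 29.3% higher on the deposited scale. With equal sums it put 19.6% lower and 43.5% higher. All 11 neutrophil markers were lower in Sdc1-/-, with a median log2 fold change of -1.67 and a summed value of 13167 to 14105 in WT and 4730 to 4867 in Sdc1-/-. Of 9 tested macrophage markers 8 were lower, with sums of 69.0 to 73.7 and 28.3 to 30.6. All 7 erythroid markers were lower, with sums of 9447 to 10142 and 5200 to 5601. Of 8 progenitor markers 4 were higher and 4 lower on the deposited scale, and 4 higher and 2 lower with equal sums, and their sums were 583 to 605 and 541 to 549. Without WT library 3, or without Sdc1-/- library 2, 2 were higher. Kit, the stem cell factor receptor, averaged 13.8 over the 6 libraries and Cd34 43.7. On the deposited scale Kit was higher in Sdc1-/- (log2 fold change 0.18, adjusted p = 0.018 by limma). Cd34 was lower (-0.24, adjusted p = 0.0019 by limma). The log2 fold changes of the progenitor list ran from -0.70 for Flt3 to 1.07 for Meis1. The lymphoid markers summed to at most 2.26 in any library, and 1 of 10 stromal and endothelial markers, Col1a2, was high enough to test and was higher. The rest of that list were below the minimum mean, with averages in both directions, so Col1a2 alone does not show a difference in stromal cells. Ly6g, which encodes a Gr1 antigen of the sort, was 8.77 ± 0.12 in WT and 1.97 ± 0.23 in Sdc1-/- (SD, n = 3). Neutrophil and erythroid transcripts were thus present in cells sorted as Lin-.

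Neutrophils and macrophages are both known to express Lgals3. Lgals3 per 1000 units of the neutrophil marker sum was 10.8, 10.2 and 10.6 in WT and 8.27, 7.82 and 8.02 in Sdc1-/-, lower without overlap. Per unit of the macrophage marker sum it was 1.96, 2.03 and 2.03 in WT and 1.29, 1.34 and 1.26 in Sdc1-/-. Lgals3 was thus lower by more than either sum, but not by more than every marker. S100a8, S100a9 and Ngp made up 85.0% to 89.0% of the neutrophil sum. Beside 27.0% of WT for Lgals3, 3 of 11 neutrophil markers and 3 of 9 macrophage markers were at a lower percentage, down to 20.6% and 23.2%. The other markers were higher, up to 72.9% in the neutrophil list and 98.25% in the macrophage list. Per unit of Lcn2, Lgals3 was 0.29 ± 0.0080 in WT and 0.28 ± 0.0016 in Sdc1-/- (SD, n = 3), with overlap. Lcn2 was picked as the profile nearest to Lgals3 in these same libraries, so a near-constant ratio follows from that choice. The part of these cell types in the Lgals3 difference was not tested.

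Galectins bind glycans that other enzymes build, and 17 of 18 genes for these enzymes and transporters were tested. Of these 8 were lower, 5 higher and 4 not past the threshold, with a median log2 fold change of -0.14 beside -0.01 for all genes. With equal sums 6 were lower and 6 higher. Of all genes tested 31.3% were lower and 29.3% higher on the deposited scale, and 19.6% and 43.5% with equal sums. B4galt1, which adds the galactose that galectins recognize, fell from 50.2 ± 1.16 to 28.2 ± 1.66 (SD, n = 3, log2 fold change -0.81, adjusted p = 1.4e-05 by limma). B3gnt2, which extends poly-N-acetyllactosamine chains, fell as well (-0.91, SE 0.22, adjusted p = 0.0099 by limma), with 25.4 to 35.6 in WT and 11.3 to 20.8 in Sdc1-/-. B4galt4, another galactosyltransferase, rose from 4.59 ± 0.24 to 10.3 ± 0.27 (SD, n = 3, log2 fold change 1.02, adjusted p = 8.4e-06 by limma), and Man2a2, a Golgi mannosidase, rose (0.71, SE 0.053, adjusted p = 3.8e-05 by limma). Mgat2, which starts the second branch of N-glycans, fell on the deposited scale (-0.26, adjusted p = 0.010 by limma) and did not pass with equal sums (-0.12, adjusted p = 0.17 by limma). B4galt1 and B4galt4, the 2 galactosyltransferases named here, thus moved in opposite directions. Calls in both directions were also found among all genes, so the split does not set the list apart.

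Sialyltransferases cap these glycans, and alpha2,6-linked sialic acid blocks the binding of several galectins. Of 7 tested capping genes 3 were lower by limma and 0 higher on the deposited scale, where 1 was higher at an unadjusted p under 0.05, and 3 were lower and 3 higher with equal sums. Beside these stood 31.3% of all genes lower and 29.3% higher, and with equal sums 19.6% and 43.5%. St6gal1, the alpha2,6-sialyltransferase, fell from 3.19 ± 0.034 to 1.29 ± 0.12 (SD, n = 3, log2 fold change -0.87, adjusted p = 5.3e-05 by limma). The alpha2,3-sialyltransferases St3gal4 (-0.40, adjusted p = 2.7e-05 by limma) and St3gal2 (-0.29, adjusted p = 0.0017 by limma) fell too. St3gal1 had a log2 fold change of 0.15 (adjusted p = 0.051 by limma), which passed with equal sums, without WT library 3 and without Sdc1-/- library 3 (0.20 and 0.19).

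Among glycoproteins that galectins bind, 20 of 28 were tested, and 16 were lower, 2 higher and 2 not past the threshold, with a median log2 fold change of -0.25. With equal sums 8 were lower and 3 higher, with a median of -0.11 beside 0.12 for all genes. Among all genes tested 31.3% were lower and 29.3% higher on the deposited scale, and 19.6% and 43.5% with equal sums. Itgam, the CD11b integrin chain and an antigen of the Lin gate, fell most, from 23.6 ± 0.33 to 7.33 ± 0.32 (SD, n = 3, log2 fold change -1.57, adjusted p = 9.7e-07 by limma), and the adhesion molecule Ceacam1 fell by 0.97 on the log2 scale (adjusted p = 7.8e-06 by limma). The most abundant were P4hb, a protein disulfide isomerase that galectin-9 binds at the T cell surface, Bsg and Cd47. Cd47, the signal that restrains phagocytosis, was 442 ± 11.8 in WT and 298 ± 8.88 in Sdc1-/- (SD, n = 3, log2 fold change -0.57, adjusted p = 1.7e-05 by limma). P4hb (-0.13, adjusted p = 0.0092 by limma) and Bsg (-0.09, adjusted p = 0.027 by limma) were lower on the deposited scale, and their fold changes turned to 0.014 and 0.055 with equal sums. Bsg did not pass without WT library 1 or 3, or without Sdc1-/- library 2 or 3 (adjusted p of 0.070 to 0.090 by limma). Of the 2 that rose, both are integrin alpha chains, Itga5 (0.55, adjusted p = 5.8e-05 by limma) and Itga6 (0.45, adjusted p = 4.3e-05 by limma). Havcr2, which encodes TIM-3, a receptor reported for galectin-9, was singled out after its values were seen. It fell from 33.6 ± 0.46 to 18.2 ± 0.32 (SD, n = 3, log2 fold change -0.85, adjusted p = 3.1e-06 by limma), and Lgals9 per Havcr2 was 16.1 ± 0.35 in WT and 22.2 ± 0.42 in Sdc1-/- (SD, n = 3).

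Of 15 genes for partners inside the cell 5 were lower, 3 higher and 7 not past the threshold, and with equal sums 4 were lower and 7 higher. The median log2 fold change was -0.004 on the deposited scale, beside -0.01 for all genes. Of all genes tested 31.3% were lower and 29.3% higher, and with equal sums 19.6% and 43.5%, so these counts do not set the list apart. Trim16, which works with galectin-3 at damaged vesicles, fell (-0.59, SE 0.068, adjusted p = 3.2e-04 by limma), as did Mtor (-0.51, SE 0.047, adjusted p = 1.1e-04 by limma) and Lamtor1, a lysosomal anchor of that kinase (-0.39, SE 0.034, adjusted p = 8.1e-05 by limma). Ctnnb1, which encodes beta-catenin, a galectin-3 partner, rose from 194 ± 8.63 to 236 ± 14.2 (SD, n = 3, log2 fold change 0.28, adjusted p = 0.0034 by limma). Hras, whose product galectin-1 holds at the membrane, had a log2 fold change of 0.03 (adjusted p = 0.49 by limma), and 0.18 with equal sums (adjusted p = 0.0050 by limma).

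Lgals9 and Lgals3bp are known targets of interferon, and 22 of 30 interferon-induced genes were tested. Of these 12 were higher, 6 lower and 4 not past the threshold, with a median log2 fold change of 0.22, and with equal sums 14 were higher and 5 lower. Bst2, the tetherin gene, rose from 74.7 ± 3.77 to 96.3 ± 2.38 (SD, n = 3, log2 fold change 0.36, adjusted p = 3.9e-04 by limma), and Irf9, which encodes an interferon regulatory factor, rose (0.21, adjusted p = 0.0028 by limma). Zbp1, a sensor of nucleic acids (-0.94, adjusted p = 6.1e-05 by limma), and Rsad2, which encodes the antiviral protein viperin (-0.81, adjusted p = 0.0055 by limma), fell. Lgals9 was lower, on both scales, while more genes of this list were higher than lower. With equal sums this also held for all genes tested, of which 43.5% were higher and 19.6% lower. On the deposited scale 29.3% of all genes were higher and 31.3% lower. The part of interferon in the Lgals9 difference was not tested.

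**Figure D4:**
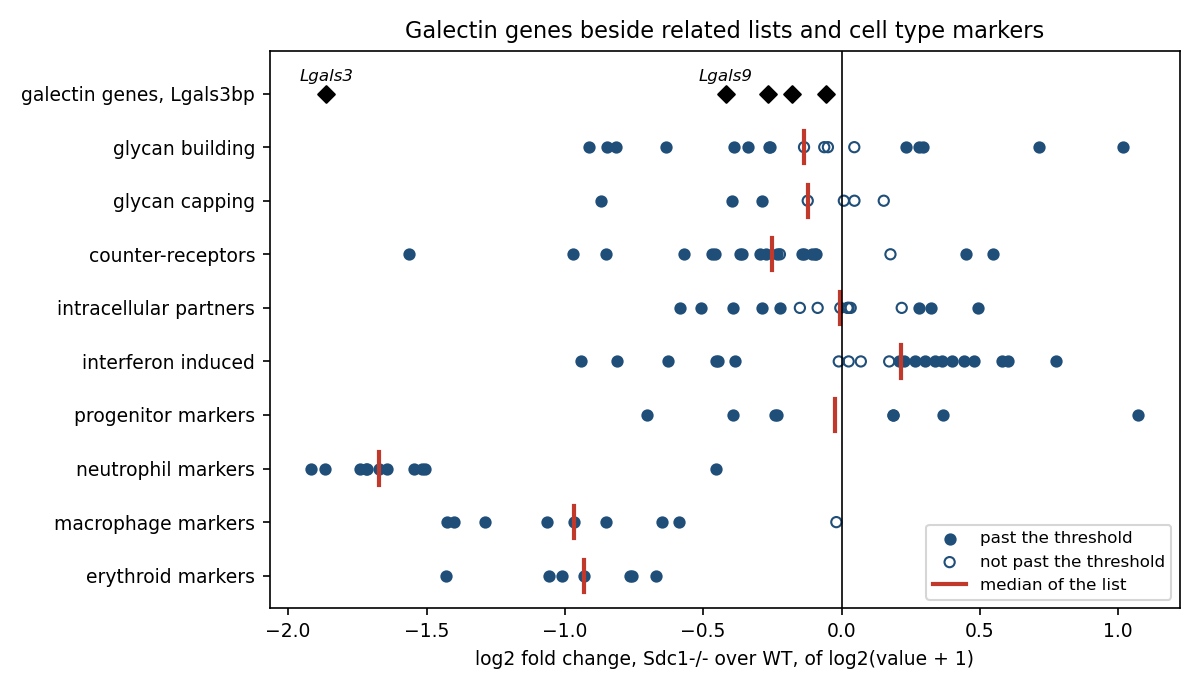
Log2 fold change of Sdc1-/- over WT on the log2(value + 1) scale, on the deposited scale, for the members (diamonds), 5 related gene lists and 4 cell type marker lists; filled circles passed an adjusted p of 0.05 over all genes tested, open circles did not, and red lines are list medians. Lgals3, at -1.86, lies among the neutrophil markers, whose median is -1.67, and the other members lie between -0.42 and -0.057. This scale draws low genes, among them several macrophage markers, nearer to 0 than their ratios would. As a percentage of WT, 3 of 11 neutrophil markers and 3 of 9 macrophage markers were lower than Lgals3.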

How the data were processed

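RNA-seq was made from 6 libraries (3 WT, 3 Sdc1-/-), grouped by the labels, with a stranded poly(A) kit and single reads. What the authors deposited is a signal: kallisto TPM, summed by gene and rescaled between libraries. The submitters' processing notes name kallisto, sleuth 0.30.0 and mm10. A table deposited by the authors with their own sleuth comparison (effect sizes, p-values and q-values) was not used. Of 36083 Ensembl genes, 35454 were matched to GENCODE M21, and 11369 were at 0 in all libraries.

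Limma 3.58.1 (R 4.3.3) compared the groups on log2(value + 1) over the 12155 genes whose mean was 1 or more, with no other term, using a variance trend and Benjamini-Hochberg adjustment over all genes at 0.05. Fold changes on this scale understate the change of low genes. The planned design took the values for TPM; its test was applied unchanged to the rescaled signal. The fit was tested on simulated data. Python 3.11.15, numpy 2.4.6, pandas 2.3.3 and scipy 1.17.1 served for other steps.

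The members and lists were chosen with earlier results of these data known. The genes named are all galectin genes, and in each list the 3 with the highest mean and the 2 called genes with the largest change, with Sdc1 and, for each member, the 2 nearest profiles. Of these, 1 gene is not reported here. Itga5, Itga6, Havcr2 and Col1a2 were named outside this rule, after their values were seen. The rule was not applied to the cell type markers, of which Kit, Cd34, Flt3, Meis1, Ly6g, S100a8, S100a9 and Ngp were also named. The alternatives tried were other pseudocounts, minimum means and scalings, no variance trend, a replicate block, and each library left out in turn.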

Additional observations from a re-analysis of the deposited data

How the results depend on the processing

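Setting every library to a sum of 1000000 moved the log2 fold change to -0.031 for Lgals1, -1.72 for Lgals3, 0.090 for Lgals3bp, -0.13 for Lgals8 and -0.27 for Lgals9, and turned P4hb to 0.014 and Bsg to 0.055. It gave 3 capping genes higher, 8 counter-receptors lower, 7 intracellular partners higher and 2380 of all genes lower, against 0, 16, 3 and 3810. Quantile normalization moved Lgals1 to -0.070, Lgals3 to -1.82, Lgals3bp to -0.0016 and Lgals9 to -0.33, and a pseudocount of 0.1 moved Lgals3 to -1.89. With a minimum mean of 5, fewer genes were tested, and 0 other galectins were higher and 1 lower, 1 capping gene was higher, and 6 interferon-induced genes were higher and 1 lower, against 1, 2, 0, 12 and 6. Leaving out each library in turn gave -0.22 to -0.15 for Lgals1, -1.88 to -1.85 for Lgals3, -0.08 to -0.03 for Lgals3bp, -0.32 to -0.21 for Lgals8, -0.43 to -0.41 for Lgals9, -1.08 to -0.67 for B3gnt2, and 0 to 1 capping genes higher.

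Libraries of the same number did not deviate together (r across genes of 0.15, -0.0083 and 0.018), so the numbers were not taken as pairs. A replicate block left the log2 fold change of Lgals3 at -1.86 and that of Lgals9 at -0.42, and changed the call of 5 of 125 listed genes, none of which is named in the text. Read depth is unknown, so the precision of low values such as those of Lgals4 cannot be given from counts.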
